A study of Saccharomyces cerevisiae with 116 samples.

Results

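Yeast libraries labelled as treated with the mating pheromone alpha factor (alpha_T0) were compared, before any salt or heat was applied, with untreated asynchronous cells (asy_T0) in one set and with libraries named alpha_t0' in another. The libraries were chosen by their labels and replicate numbers, 10 of the 116 in the series. The first set held 3 alpha_T0 and 3 asy_T0 libraries of the NaCl series, made from cells to which Schizosaccharomyces pombe cells had been added, and each alpha_T0 library was paired with the asy_T0 library of the same replicate number. The second set had no S. pombe and held 2 alpha_T0 and 2 alpha_t0' libraries, 1 of each from the NaCl series and 1 of each from the HeatShock series. A further 2 asy_T0 libraries of the unspiked table and 3 unfractionated inputs of a polysome experiment (1 alpha_T0 and 2 asy_T0) were read beside them.

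In every group the strain was BY4741, a haploid laboratory strain of mating type a that carries deletions in HIS3, LEU2, MET17 and URA3, and the cells had grown in YPD, a rich glucose medium, for 7 to 10 generations. The alpha_T0 libraries are labelled with alpha factor, which the protocol gives as 25 uM for 2 h. The asy_T0 libraries, named for asynchronous growth, carry no treatment. The alpha_t0' libraries carry the same treatment label as alpha_T0, and the labels do not say what separates the 2 names. Neither do they say whether libraries of one group came from separate cultures, so the p-values below measure the spread between the libraries fitted, which may be technical. The files hold no count of arrested cells.

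Alpha factor is the peptide by which alpha cells court a cells. On an a cell it binds the receptor Ste2, whose G protein passes the signal through a kinase cascade to the transcription factor Ste12. Ste12 switches on the genes for agglutination, projection growth and fusion, while Far1 blocks the G1 cyclin kinase, so that the cell stops in G1 before the bud, the new DNA and the spindle are made.

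Levels are given in CPM, S. cerevisiae counts brought to a common library total after trimmed-mean scaling, in the order of replicates 1, 2 and 3, or of the NaCl and then the HeatShock series. Changes are log2 ratios of alpha_T0 over asy_T0 ± SE from 1 edgeR quasi-likelihood fit of all 16 spiked libraries with the replicate number as a block. Besides alpha_T0 and asy_T0, these include libraries taken after salt and libraries treated with cycloheximide. All of them share in the scaling, and the alpha and asynchronous salt libraries also share in the spread. A gene was called, and is said to have risen or fallen, at a Benjamini-Hochberg adjusted p under 0.05 over all 5744 genes tested. CPM values of different genes were not corrected for gene length and are not compared with each other.

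The spiked libraries held 1854297 to 4839305 S. cerevisiae counts in alpha_T0 and 2049371 to 5469230 in asy_T0. MATALPHA1 and MATALPHA2, the regulators of alpha cells, had 0 counts in every library read here. So did HMLALPHA1 and HMLALPHA2, their silent copies. Reads of such copies can match several places, and how those reads were counted is not stated. The 0 counts therefore do not show the mating type. Of 4 alpha cell genes that could be tested, 2 were called higher in alpha_T0, the agglutinin gene SAG1 (0.55 ± 0.13) and MF(ALPHA)1, and 0 were called without the replicate block and 0 with S. pombe counts as library sizes. The call of MF(ALPHA)1, the alpha factor gene of alpha cells, rested on reads of 1 library and was not made by DESeq2 (adjusted p = 0.851). The 9 genes listed made up 0.00685 to 0.00841% of S. cerevisiae counts in alpha_T0 and 0.00464 to 0.00596% in asy_T0. One library stood apart by a small number of reads. The alpha_T0 library of replicate 2 held 14 counts of MET17, 3 of LEU2, 1 of URA3 and 19 of MF(ALPHA)1, while the other 2 spiked alpha_T0 libraries held 0 of each. The asy_T0 library of replicate 2 held 1, 0, 1 and 1. HIS3, of which the strain keeps a part, was read in every library (0.22 ± 0.17, adjusted p = 0.34). Where leaving out the replicate 2 alpha_T0 library ended the call of a gene named by rule in the spiked comparison, the value without it is given below.

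Across all genes, 983 rose and 736 fell in alpha_T0, 29.9% of those tested, with 17.1% higher and 12.8% lower. At least 2-fold changes numbered 407 rises and 188 falls among the called genes. When the library sizes were set by the S. pombe counts, 281 genes rose and 400 fell (11.9% of those tested, 4.89% higher and 6.96% lower), and the median log2 change of all genes was -0.29, against -0.01 with trimmed-mean scaling. The common coefficient of variation between libraries was 0.256 in that fit and 0.132 with trimmed-mean scaling. A call lost in that fit may come from the shift or from the wider spread, and their parts were not tested. Values from that fit are called the S. pombe scale below and are to be read against its median. In these bulk libraries, more RNA of a gene per cell and more cells that express it cannot be told apart.

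The receptor and the part of the pathway that tunes its signal rose. STE2, which encodes the alpha factor receptor, was at 1887, 1731 and 1864 CPM in alpha_T0 and 589, 410.1 and 423 CPM in asy_T0. The groups did not overlap, and the log2 change was 1.97 ± 0.16 (adjusted p = 3.76e-07). GPA1, the G protein alpha subunit that holds the signal off at rest, was at 303, 338 and 406 CPM in alpha_T0 and 109, 133 and 158 CPM in asy_T0, a rise of 1.39 ± 0.14 (adjusted p = 4.06e-06). The beta subunit STE4 and the gamma subunit STE18, which carry the signal on, rose by 0.56 ± 0.15 (adjusted p = 0.00986) and 0.66 ± 0.23 (adjusted p = 0.0413). Neither was called without the replicate block, with adjusted p of 0.0567 for STE4 and 0.198 for STE18, nor without alpha_T0 replicate 2 (0.0545 and 0.0846) or asy_T0 replicate 1 (0.0707 and 0.224). STE18 was also not called without alpha_T0 replicate 1 (adjusted p = 0.0798) or 3 (0.154), and neither gene was called on the S. pombe scale (0.573 and 0.464).

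BAR1, SST2 and MSG5, which act against the signal, rose. BAR1, the secreted protease that degrades alpha factor, was at 3468, 2593 and 2504 CPM in alpha_T0 and 476, 306 and 279 CPM in asy_T0, a log2 change of 3.04 ± 0.19 (adjusted p = 2.02e-08). SST2, which speeds the return of Gpa1 to its resting form, was at 1561, 1282 and 1055 CPM in alpha_T0 and 317, 201 and 190.1 CPM in asy_T0 and rose by 2.48 ± 0.14 (adjusted p = 8.08e-09). Within alpha_T0, replicate 1 was highest for both genes, as it was within asy_T0, and no alpha_T0 value reached down to an asy_T0 value. MSG5, a phosphatase that acts on the MAP kinase, rose by 2.15 ± 0.20.

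The kinases of the cascade were split. The upstream kinases STE20, STE11 and STE7 and the scaffold STE5 gave log2 changes of -0.05 ± 0.13, 0.19 ± 0.14, 0.08 ± 0.17 and 0.15 ± 0.12, none of them called, with adjusted p of 0.818, 0.333, 0.767 and 0.391, and their alpha_T0 and asy_T0 values overlapped. FUS3, the mating MAP kinase at the end of the cascade, stood at 373, 398 and 379 CPM in alpha_T0 and 54.8, 55.7 and 48.9 CPM in asy_T0, a log2 change of 2.84 ± 0.17 (adjusted p = 1.26e-08). The invasive growth kinase KSS1 rose by 0.73 ± 0.14 (adjusted p = 0.00107), against an S. pombe scale value of 0.46 that was not called (adjusted p = 0.368).

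Among the outputs of the cascade, STE12, its transcription factor, reached 399, 416 and 396 CPM in alpha_T0, with 164, 193 and 163 CPM in asy_T0 and a change of 1.22 ± 0.13 (adjusted p = 4.96e-06). FAR1, which inhibits the G1 cyclin kinase and anchors the polarity machinery, was at 1023, 907 and 1021 CPM in alpha_T0 and 232, 167 and 216 CPM in asy_T0, and its change was 2.28 ± 0.18 (adjusted p = 1.95e-07). KAR4, a transcription factor for the later karyogamy genes, had 662, 629 and 718 CPM in alpha_T0 and 23.7, 33.5 and 38.2 CPM in asy_T0. That was the pathway's largest change, 4.38 ± 0.24 (adjusted p = 5.00e-09), among the 24 signalling genes listed.

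Of those 24 genes, 14 rose and 1 fell, with a median log2 change of 0.69 against -0.01 for all genes. The 1 that fell was DIG1, a repressor of Ste12 (-0.44 ± 0.11, adjusted p = 0.00535), while its partner DIG2 rose by 2.07 ± 0.14. Both were named after their values were seen. Without the replicate block 12 of the 24 rose and 0 fell. On the S. pombe scale 11 of the 24 rose and 0 fell, with a median of 0.44. As a share of all S. cerevisiae counts the 24 genes made up 0.962 to 1.09% in alpha_T0 and 0.3156 to 0.32005% in asy_T0.

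**Figure D1:**
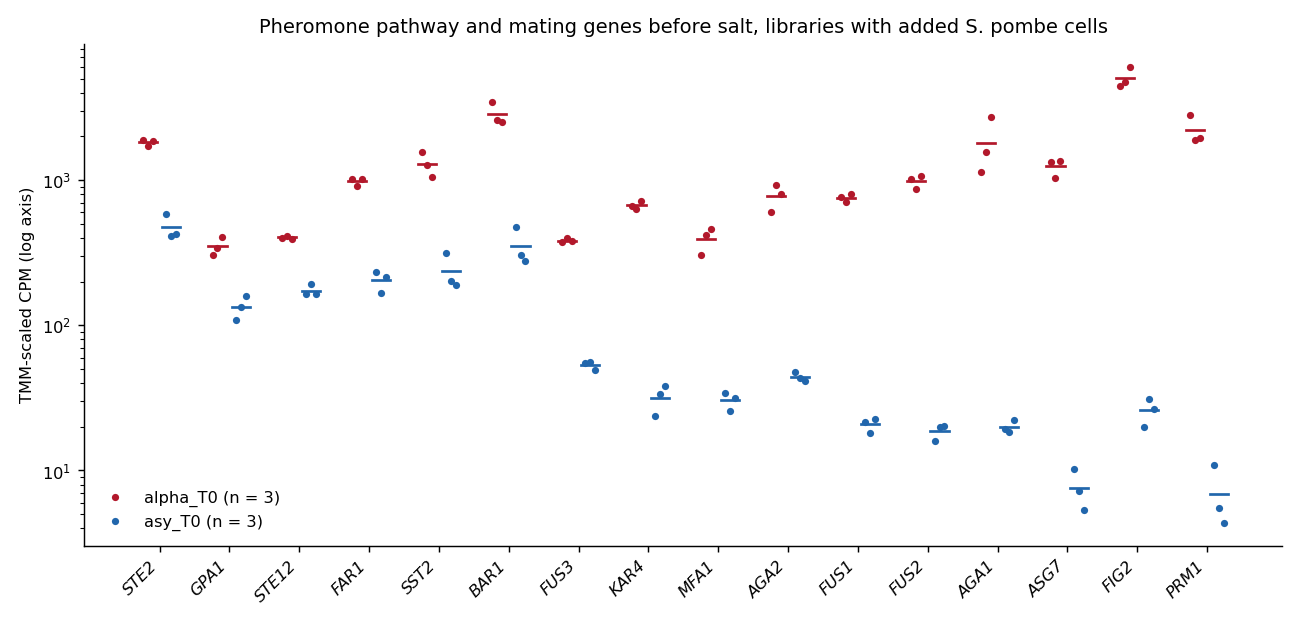
Level of 16 pheromone pathway and mating genes in each spiked library, in CPM on a log axis, with alpha_T0 (red, 3 libraries) left of asy_T0 (blue, 3 libraries) and a bar at each group's mean. For STE2, FUS3, FAR1 and FUS1 all 3 alpha_T0 points lie above all 3 asy_T0 points.

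The cells' own pheromone genes rose as well. MFA1, one of the genes for a-factor, the pheromone that a cells send, was at 306, 419 and 462 CPM in alpha_T0 and 34.3, 25.9 and 31.4 CPM in asy_T0, a log2 change of 3.69 ± 0.21 (adjusted p = 5.83e-09). The second a-factor gene, MFA2, rose by 1.84 ± 0.23, the a-factor exporter STE6 by 0.97 ± 0.13 (not called on the S. pombe scale, adjusted p = 0.152) and the processing protease AXL1 by 1.28 ± 0.12. Of the 10 production and export genes 6 rose, and the 1 that fell was the CAAX protease gene RCE1 (-0.91 ± 0.25), named after its value was seen. Without the replicate block 4 of the 10 rose and 0 fell, and on the S. pombe scale 3 rose and 1 fell. The fall of RCE1 was not called without alpha_T0 replicate 2 or asy_T0 replicate 1.

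Agglutination, projection and fusion genes gave the largest changes of the whole comparison, and 9 of the 10 largest rises were theirs among called genes with a symbol and a mean of at least 10 CPM. FUS1, a membrane protein of the fusion site, was at 761, 712 and 799 CPM in alpha_T0 and 21.5, 18.3 and 22.7 CPM in asy_T0, a log2 change of 5.19 ± 0.18 (adjusted p = 3.61e-11). FIG1, which is needed for calcium entry in mating cells, was at 1822, 1154 and 1274 CPM in alpha_T0 and 0.641, 0.38 and 0 CPM in asy_T0. Its fitted change of 11.68 ± 0.35 is set against a handful of asy_T0 reads, so its size is loosely fixed although the groups were far apart.

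AGA1, the anchor subunit of the a-agglutinin, was at 1144, 1561 and 2707 CPM in alpha_T0 and 19.2, 18.4 and 22.3 CPM in asy_T0 (6.39 ± 0.27, adjusted p = 3.34e-10), and its binding subunit AGA2 rose by 4.13 ± 0.23. FIG2, a wall adhesin of mating projections, was at 4452, 4781 and 6039.8 CPM in alpha_T0 and 19.9, 31.2 and 26.6 CPM in asy_T0 (7.58 ± 0.37). PRM1, which acts in the merging of the plasma membranes, was at 2806, 1878 and 1947 CPM in alpha_T0 and 10.9, 5.51 and 4.35 CPM in asy_T0 (8.31 ± 0.29). For AGA1, FIG2 and PRM1 the lowest alpha_T0 library lay more than 10 times above the highest asy_T0 library.

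ASG7, a regulator found in a cells, rose by 7.29 ± 0.21, FUS2 by 5.67 ± 0.26 and PRM2 by 9.69 ± 0.42. PRM3, which acts in nuclear fusion, and PRM6, a potassium transporter, had 3808 and 3610 counts over the 3 alpha_T0 libraries and 2 and 3 counts over the 3 asy_T0 libraries. Their count ratios, scaled to library size, were 2189 (95% counting interval 606 to 18084) for PRM3 and 1384 (473 to 6712) for PRM6. The kinesin KAR3 and its partner CIK1, which pull the 2 nuclei together, rose by 2.44 ± 0.18 and 3.61 ± 0.27.

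Over the 27 agglutination and fusion genes, 23 rose and 1 fell, with a median of 3.83, and on the S. pombe scale 22 rose and 1 fell with a median of 3.57. The gene that fell was SPA2, a scaffold of polarized growth (-0.76 ± 0.13, adjusted p = 3.80e-04). The 3 that were not called also serve growing cells: KAR9 (-0.46 ± 0.19, called lower in the fit of only the 6 libraries, adjusted p = 0.0243), PEA2 (-0.20 ± 0.19) and the formin BNI1 (-0.06 ± 0.14). Together the 27 genes took 2.22 to 2.80% of the S. cerevisiae counts in alpha_T0 and 0.352 to 0.402% in asy_T0.

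The G1 cyclins moved in opposite directions. CLN3, the cyclin that acts first in G1, was at 132, 188 and 174 CPM in alpha_T0 and 47.5, 65.0 and 39.2 CPM in asy_T0, a rise of 1.70 ± 0.15 (adjusted p = 7.97e-07) with no overlap. CLN1, which acts at Start together with CLN2, was at 12.8, 9.18 and 7.12 CPM in alpha_T0 and 84.3, 99.2 and 91.9 CPM in asy_T0, a log2 change of -3.31 ± 0.50 (adjusted p = 1.39e-04). CLN2 itself was at 40.6, 69.8 and 37.8 CPM in alpha_T0 and 132, 167 and 127 CPM in asy_T0 (-1.63 ± 0.42, adjusted p = 0.00836), and without the replicate block it was not called (adjusted p = 0.211), nor was it without alpha_T0 replicate 2 (0.0629) or asy_T0 replicate 1 (0.0757).

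PCL1, a cyclin of the Pho85 kinase made with CLN1 and CLN2, had the largest fall among called genes with a symbol and a mean of at least 10 CPM. Its levels were 0.376, 4.36 and 1.64 CPM in alpha_T0 and 72.8, 90.9 and 91.4 CPM in asy_T0 (-5.35 ± 0.74, adjusted p = 6.55e-05). The S phase cyclins CLB5 (-1.60 ± 0.40) and CLB6 (-4.42 ± 0.91) fell, as did the repressors NRM1 (-4.41 ± 0.43) and YOX1 (-4.73 ± 0.67), which close the G1/S and early G1 programmes. CLB5 was not called without alpha_T0 replicate 2 (adjusted p = 0.0611). SWI4, the DNA binding subunit of the G1/S factor SBF, changed by -0.78 ± 0.23 (adjusted p = 0.0178) and was not called without the block (adjusted p = 0.258) or without alpha_T0 replicate 2 (0.0901), alpha_T0 replicate 3 (0.0681) or asy_T0 replicate 1 (0.0868).

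Of 24 G1/S genes, 18 fell and 3 rose, with a median of -1.49. Without the replicate block 13 fell and 1 rose. Those that rose were PCL2, a Pho85 cyclin (3.58 ± 0.23), and the wall genes CWP2 (0.61 ± 0.21) and CRH1 (0.62 ± 0.20), named after their values were seen. The alpha_T0 library of replicate 2 had the highest alpha_T0 level of CLN2, PCL1, RNR1 and POL1. Its stray marker reads stand above, and their part in these levels was not tested. When it was left out, 14 of the 24 G1/S genes fell and 4 rose, with a median of -1.37.

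The genes of DNA synthesis fell with them. RNR1, the large subunit of ribonucleotide reductase, was at 68.5, 189.5 and 57.5 CPM in alpha_T0 and 606, 513 and 484 CPM in asy_T0, a change of -2.68 ± 0.43 (adjusted p = 2.67e-04, or 0.0547 without the replicate block). POL1, the catalytic subunit of the primase-polymerase, was at 86.2, 133 and 109.6 CPM in alpha_T0 and 250.4, 292 and 337 CPM in asy_T0 (-1.45 ± 0.28). The sliding clamp POL30 (-1.84 ± 0.38) and the cohesin subunit MCD1 (-4.36 ± 0.67) fell. Of 28 replication and cohesion genes 22 fell and 1 rose, with a median of -0.79, and without the block 8 fell and 1 rose. Leaving out asy_T0 replicate 1 left 14 falls.

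Histone genes fell as a whole class. HTA2, a histone H2A gene, was at 18.1, 12.9 and 12.1 CPM in alpha_T0 and 307, 243 and 241 CPM in asy_T0, a change of -4.21 ± 0.19 (adjusted p = 6.45e-10). Its neighbour HTB2 (-3.70 ± 0.17) and the H4 genes HHF1 (-3.75 ± 0.16) and HHF2 (-3.06 ± 0.18) fell too. All 10 genes fell, down to HTZ1, the replication independent H2A.Z gene (-1.73 ± 0.23), and all 10 also fell on the S. pombe scale and without the replicate block. The histone pairs (HTA1 and HTA2, HHF1 and HHF2 and the rest) are near-identical copies, and how the authors' counting shared reads between copies is not given, so the split between them is uncertain. The summed share does not depend on that split, but any reads left uncounted for matching several copies would be missing from it. It was 0.0590 to 0.0649% of S. cerevisiae counts in alpha_T0 and 0.372 to 0.393% in asy_T0.

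Mitotic genes fell unevenly. CLB1, a mitotic cyclin, was at 1.51, 2.52 and 2.74 CPM in alpha_T0 and 80.2, 55.3 and 73.5 CPM in asy_T0 (-4.90 ± 0.28, adjusted p = 6.08e-09). CLB2, the main mitotic cyclin, was at 29.0, 37.4 and 27.4 CPM in alpha_T0 and 155, 110.3 and 106 CPM in asy_T0 (-1.97 ± 0.18, adjusted p = 1.02e-06). For both, the lowest asy_T0 library lay above the highest alpha_T0 library. CLB3 fell (-0.79 ± 0.11), while CLB4 (-0.21 ± 0.14, adjusted p = 0.264) and the anaphase activator CDC20 (-0.24 ± 0.12, adjusted p = 0.148) were not called.

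SWI5 (-3.62 ± 0.20), a transcription factor that acts as cells leave mitosis, fell, and so did HOF1 (-4.62 ± 0.30), which acts in the closing of the bud neck. Of 30 genes of the mitotic cyclin and CLB2 cluster list, 22 fell and 2 rose (median -0.99). The 2 risers were the mitotic exit kinases CDC15 (0.43 ± 0.13) and DBF2 (0.82 ± 0.12), named after their values were seen, and 1 gene of the list rose without the replicate block and 0 on the S. pombe scale.

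**Figure D2:**
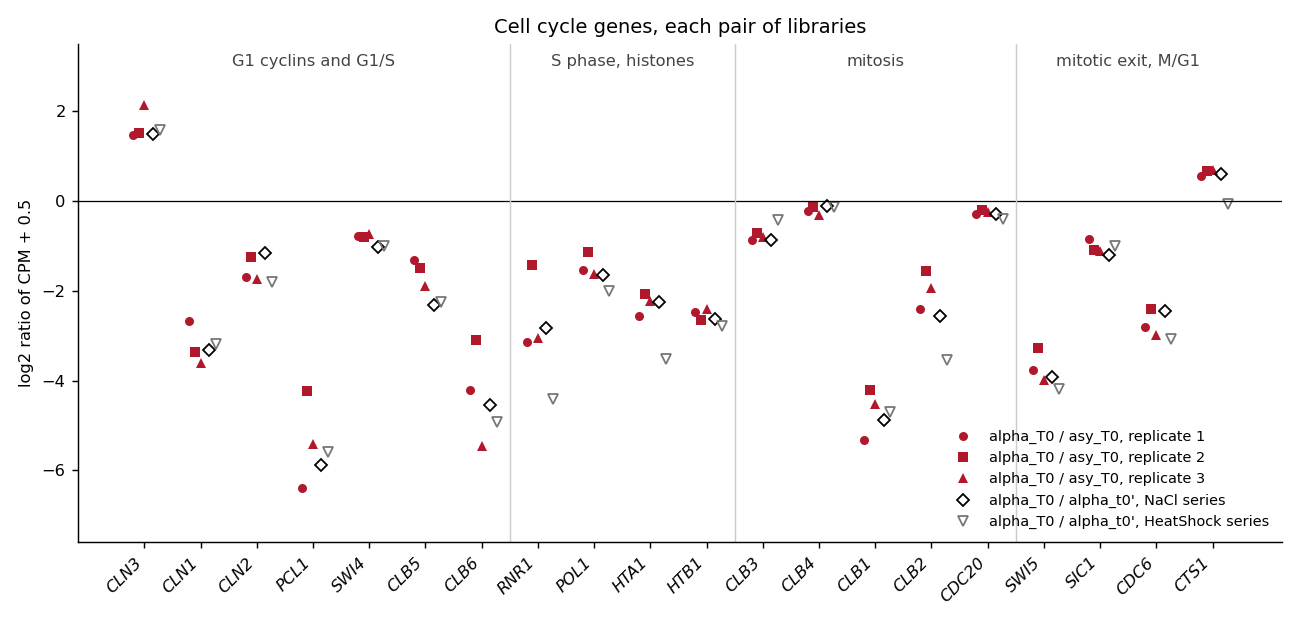
Log2 ratio of (CPM + 0.5) for 20 cell cycle genes in each matched pair: alpha_T0 over asy_T0 in the 3 spiked replicate pairs, and alpha_T0 over alpha_t0' in the NaCl and HeatShock series. CLN3 lies above 0 in all 5 pairs, and CLN1, CLB1, CLB2 and HTA1 lie below 0 in all 5.

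Genes of the M/G1 interval and of daughter cell separation did not move as blocks. The replication licensing factor CDC6 (-2.85 ± 0.41), the Pho85 cyclin PCL9 (-2.86 ± 0.24), the wall protein gene PIR1 (-3.11 ± 0.17) and the CDK inhibitor SIC1 (-1.02 ± 0.13) fell. TEC1, the partner of Ste12 at invasive growth genes, rose by 1.59 ± 0.15, as did the wall gene PIR3, named after its value was seen (2.76 ± 0.32). Of 20 M/G1 and licensing genes 10 fell and 3 rose. Of 12 daughter separation genes 7 fell and 3 rose (5 and 1 without the replicate block), among them a fall of EGT2 (-3.64 ± 0.15) and DSE3 (-2.33 ± 0.16). The chitinase CTS1 went the other way by 0.64 ± 0.20 (adjusted p = 0.0235), a call that was lost without the replicate block (adjusted p = 0.0766), on the S. pombe scale (0.48) and without alpha_T0 replicate 2 (0.091) or 3 (0.0787) or asy_T0 replicate 1 (0.0877) or 3 (0.0948).

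Cell wall genes were mostly higher. SLT2, the MAP kinase of the wall integrity pathway, rose by 2.45 ± 0.14 (adjusted p = 5.48e-09) and its paralogue KDX1 by 2.62 ± 0.24. GSC2, the glucan synthase subunit made under wall stress and in mating, rose by 3.97 ± 0.25, the wall protease YPS1 by 2.63 ± 0.16, and GFA1, the first enzyme of the chitin precursor pathway, by 2.48 ± 0.18. Of 34 wall genes 20 rose and 5 fell, with a median of 0.82. On the S. pombe scale the count was 11 higher and 4 lower, with a median of 0.53, and without the replicate block 14 higher and 1 lower. CIS3, a wall glycoprotein, fell with a log2 change of -1.38 ± 0.23 (named after its value was seen).

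Stress genes were raised before any stress had been given. HSP12, a membrane protecting heat shock protein, was at 85.4, 34.0 and 86.6 CPM in alpha_T0 and 3.53, 8.17 and 7.26 CPM in asy_T0, a change of 3.22 ± 0.32 (adjusted p = 2.21e-06). Replicate 2 was the lowest of the alpha_T0 libraries, and it still lay above every asy_T0 library. NQM1, a transaldolase, rose by 4.61 ± 0.29, RTC3 by 3.20 ± 0.38, TMA10 by 2.48 ± 0.26 and the glycogen phosphorylase GPH1 by 2.32 ± 0.21. The cytosolic catalase CTT1 changed by 0.78 ± 0.20 (adjusted p = 0.00907), with overlapping groups. It was not called without the replicate block (adjusted p = 0.245), on the S. pombe scale (0.362) or without replicate 1 of alpha_T0 (0.0721) or of asy_T0 (0.0821).

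Of 50 general stress genes, targets of Msn2 and Msn4, 37 rose and 2 fell, with a median of 1.17. On the S. pombe scale 24 rose and 2 fell, with a median of 0.93. The falls were YGP1 (-1.76 ± 0.28) and the eisosome gene PIL1 (-0.82 ± 0.13), named after their values were seen. The size differed between replicates, since the list's median was 1.51, 0.67 and 1.37 in pairs 1, 2 and 3. Without the alpha_T0 library of replicate 2, the one with stray marker reads, 36 of the 50 rose, 2 fell and the median was 1.37.

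Part of the osmotic genes rose, while heat shock factor genes did not follow as a group. GPD1, the enzyme that commits glycolytic carbon to glycerol, was at 1090.0, 592 and 847 CPM in alpha_T0 and 233, 207 and 226 CPM in asy_T0 (1.89 ± 0.18, adjusted p = 1.22e-06), and the sodium pump ENA1 rose by 2.96 ± 0.28, although its near-identical copies make its own value uncertain. Of 24 osmotic genes 9 rose and 2 fell, where 17.1% of all genes rose and 12.8% fell. The list's median was 0.26 against -0.01 for all genes, with 17 of the 24 above 0. Without the replicate block 7 rose and 1 fell. On the S. pombe scale 3 rose and 0 fell, where 4.89% of all genes rose, and the list's median was -0.01 against -0.29 for all genes. Of 22 heat shock factor targets 3 rose and 0 fell, with a median of 0.02. The heat shock factor counts higher and lower were 1 and 0 without the replicate block, 0 and 0 on the S. pombe scale, 1 and 2 without alpha_T0 replicate 2, and 1 and 0 without alpha_T0 replicate 3, asy_T0 replicate 1 or asy_T0 replicate 3.

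**Figure D3:**
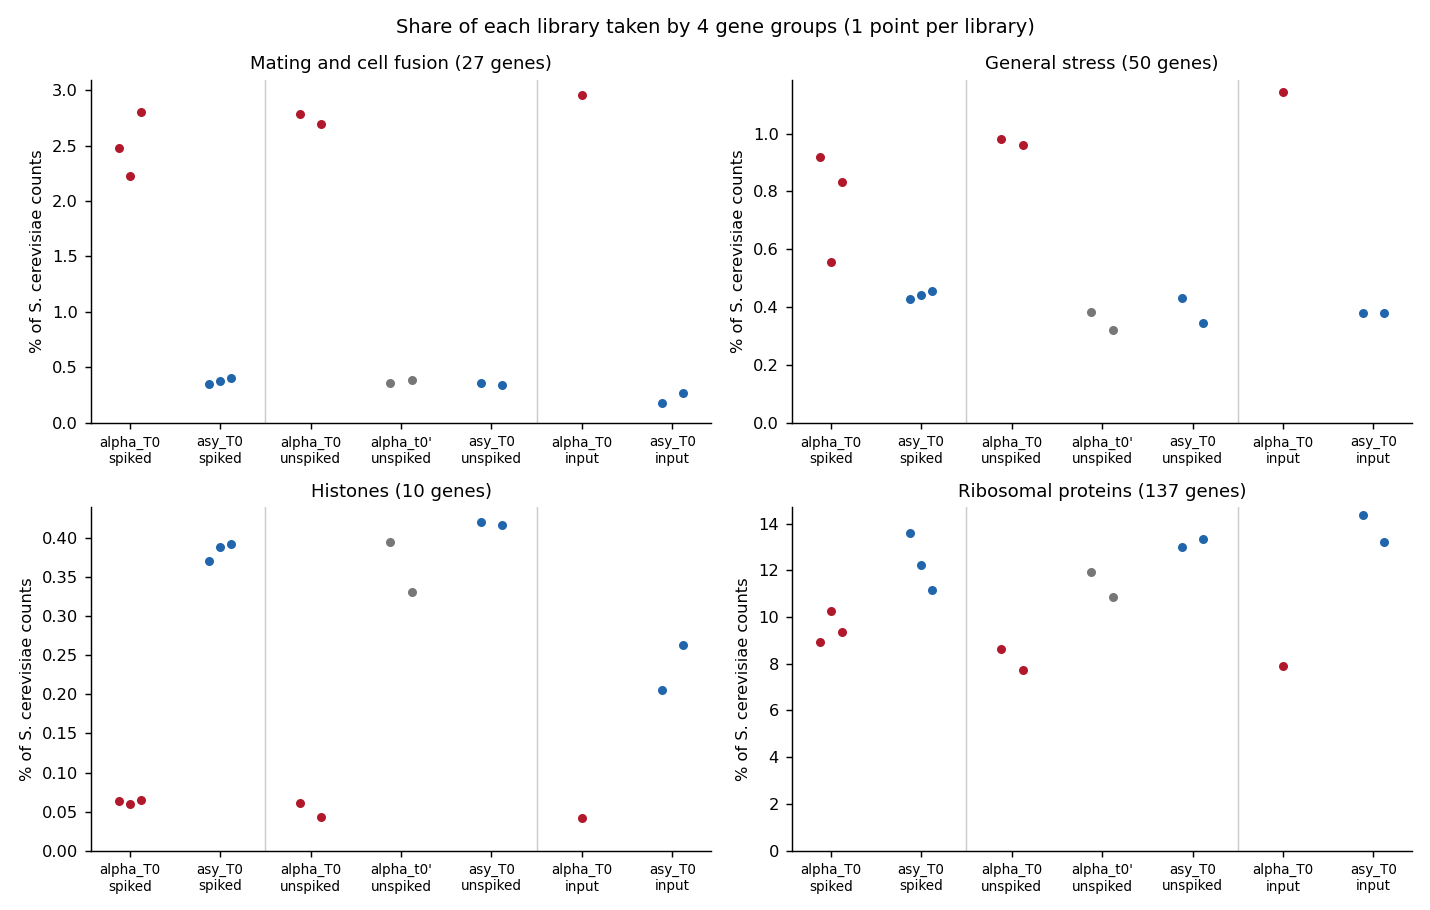
Share of S. cerevisiae counts (percent) taken by the mating, general stress, histone and ribosomal protein genes in each of the 15 libraries read, by group, with alpha_T0 first. Mating genes held 2.22 to 2.95% in the alpha_T0 libraries of all 3 tables and at most 0.402% in the alpha_t0' and asy_T0 libraries.

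Ribosomal protein genes were lower in share, with a size that varied between pairs. They took 8.91 to 10.3% of S. cerevisiae counts in alpha_T0 and 11.2 to 13.6% in asy_T0. Of 137 such genes, 0 rose and 41 fell, with a median of -0.36, and pair medians of -0.66, -0.16 and -0.24. Without the replicate block 3 fell, and on the S. pombe scale 11 fell, where 6.96% of all genes fell. With 1 library left out in turn, 7 fell without either library of replicate 1, 22 and 19 without the alpha_T0 libraries of replicates 2 and 3, and 55 and 29 without the asy_T0 libraries of replicates 2 and 3. RPS26B (-0.70 ± 0.16, not called without the block, adjusted p = 0.119) and RPL9A (-0.67 ± 0.16) were among those that fell, and RPL3 (-0.36 ± 0.14, adjusted p = 0.0625) was not called by edgeR, while DESeq2 called it lower (0.027). Most of these genes come as near-identical pairs, so values of single copies are uncertain.

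Of 67 ribosome biogenesis genes, which build the ribosome in the nucleolus, 0 rose and 12 fell, where 12.8% of all genes fell. Their median was -0.31 against -0.01 for all genes. Their share of counts overlapped between the groups, at 1.51 to 2.02% in alpha_T0 and 1.88 to 2.57% in asy_T0. Without the block none of the 67 was called in either direction. The S. pombe scale left 2, where 6.96% of all genes fell. Without 1 library the count of falls was 2 (alpha_T0 replicate 3 or asy_T0 replicate 1) or 4 (alpha_T0 replicate 2 or asy_T0 replicate 3), and larger in the other cases. The nucleolar protein gene NSR1 (-0.34 ± 0.30, adjusted p = 0.423) was not called, while the RNA helicase gene HAS1 fell (-0.56 ± 0.12, not called without the block, adjusted p = 0.11). Of 20 RNA polymerase I and III genes 1 fell, RPC19 (-0.42 ± 0.13), and 0 rose. RPC19 was not called without the block (adjusted p = 0.549), on the S. pombe scale (0.132) or without alpha_T0 replicate 1 (0.107), alpha_T0 replicate 3 (0.125) or asy_T0 replicate 1 (0.125).

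Nutrient genes split by pathway. The repressible acid phosphatase PHO5 was at 26.3, 26.4 and 24.1 CPM in alpha_T0 and 269, 149.8 and 122 CPM in asy_T0, a log2 change of -2.76 ± 0.19 (adjusted p = 4.39e-08) with no overlap. Its relatives PHO11 (-2.18 ± 0.25) and PHO12 (-2.64 ± 0.13) fell, and those 2 are near-identical copies whose separate values are uncertain. The sodium-phosphate cotransporter PHO89 rose by 2.19 ± 0.37, and the main phosphate transporter PHO84 was not called (-0.87 ± 0.41, adjusted p = 0.122). PHO84 was called lower on the S. pombe scale (-1.20, adjusted p = 0.00308), in the fit of only the 6 libraries (-0.84, adjusted p = 7.46e-05) and in alpha_T0 against alpha_t0' (-1.14 ± 0.27, adjusted p = 0.0129). The last call was not made without the series block (adjusted p = 0.0949). That log2 change was -0.68 without alpha_T0 HeatShock, -1.10 without alpha_t0' HeatShock and -1.20 without alpha_t0' NaCl. Of 16 phosphate genes 10 fell and 3 rose, or 7 and 2 without the replicate block.

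With the replicate block, sulfur genes included 12 rises and 0 falls among 22, with a median of 0.50. The sulfate permease SUL1 rose by 2.52 ± 0.57 and the ATP sulfurylase MET3 by 1.14 ± 0.23. Those calls depended on the fit, since 3 of the 22 rose without the replicate block, 1 on the S. pombe scale and 7 without alpha_T0 replicate 3, asy_T0 replicate 1 or asy_T0 replicate 3. Purine genes included the falls of the salvage enzyme HPT1 (-1.23 ± 0.21) and the purine permease FCY2 (-0.92 ± 0.24, not called without the block, adjusted p = 0.0749, or without asy_T0 replicate 1, 0.0686), with 7 of 20 lower and 0 higher, and 3 lower without the block. Of 27 iron and copper genes tested 10 fell and 3 rose, and without the block 3 fell and 3 rose. Leaving out 1 library left 5 iron and copper falls in 3 cases (alpha_T0 replicates 2 and 3, asy_T0 replicate 3) and 6 without asy_T0 replicate 1.

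Of 14 glucose carriers and sensors tested 5 rose and 2 fell. Without the block 2 rose and 1 fell, on the S. pombe scale 1 rose and 2 fell, and without asy_T0 replicate 2 the count was 2 and 2. HXT5, a carrier of slowly growing cells, rose by 2.79 ± 0.38 and HXT1, a carrier of high glucose, fell with a log2 change of -0.91 ± 0.17 (not called without the block, adjusted p = 0.423). The minor glycolytic isozymes TDH1 and ENO1 rose by 2.48 ± 0.22 and 1.37 ± 0.19 (ENO1 was not called without the block, adjusted p = 0.0835), while TDH3, the major isozyme of glyceraldehyde-3-phosphate dehydrogenase, gave -0.05 ± 0.14 (adjusted p = 0.81). The arginine enzyme ARG4 rose by 1.74 ± 0.19 and the sterol reductase ERG24 by 2.20 ± 0.21. Sequence shared between the TDH genes makes their separate values uncertain. Counts higher and lower were 4 and 1 of 19 glycolysis genes, 8 and 2 of 30 respiratory genes and 4 and 2 of 24 ergosterol genes. They were 8 and 4 of 21 arginine and GCN4 target genes and 4 and 2 of 10 Ty (transposon) and filamentation genes tested. Without the block the same counts were 2 and 0, 2 and 2, 1 and 0, 4 and 0, and 4 and 1. Of all 5744 genes, 17.1% rose and 12.8% fell with the block, against 494 and 243 genes without it. In the same order the lists' median log2 changes were 0.13, 0.27, 0.18, 0.31 and 0.34 with trimmed-mean scaling, against -0.01 for all genes. On the S. pombe scale they were -0.16, -0.01, -0.11, 0.00043 and 0.058, against -0.29 for all genes.

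**Figure D4:**
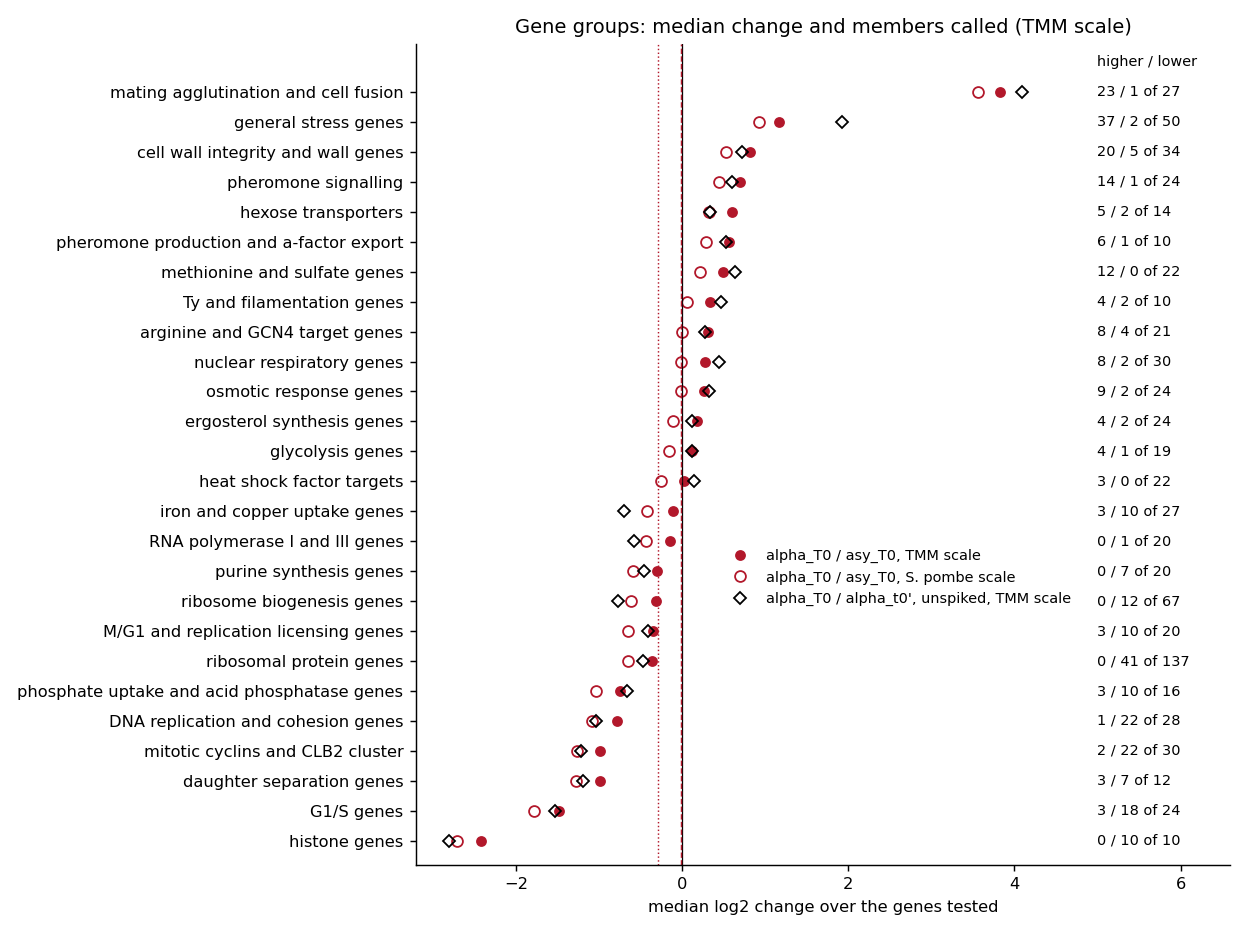
Median log2 change of each gene list in alpha_T0 over asy_T0 with trimmed-mean scaling and with S. pombe totals as library sizes, and in alpha_T0 over alpha_t0', with the numbers of members called higher and lower. Dashed and dotted lines mark the medians of all genes, and the mating list (3.83) and the histone list (-2.42) lie at the ends.

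The S. pombe cells give a reference outside the S. cerevisiae genes. The ratio of S. cerevisiae to S. pombe counts was 6.04, 12.4 and 9.90 in alpha_T0 and 9.50, 11.8 and 11.3 in asy_T0. The paired log2 difference was -0.65, 0.07 and -0.19, a mean of -0.26 ± 0.37 (SD, n = 3 pairs), and an exact two-sided sign-flip test gave p = 0.5, where 3 pairs allow no value under 0.25. An exact permutation test over the 6 libraries gave p = 0.7 (smallest possible 0.1). The lowest ratio was that of alpha_T0 replicate 1, and without replicate 1 the mean of the other 2 pairs was -0.060.

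The unspiked set repeated the comparison with alpha_t0' as the other arm. In a fit of 10 libraries with the series as a block, 799 genes were higher and 582 lower in alpha_T0 than in alpha_t0', 24.9% of 5552 tested, with 14.4% higher and 10.5% lower. This set shares no library with the spiked one. The 10 libraries fitted include asy_T0 libraries and libraries treated with nocodazole, and the spread comes from the disagreement of 2 series over all of them. FUS1 was at 644 and 864 CPM in alpha_T0 and 17.7 and 21.4 CPM in alpha_t0' (5.26 ± 0.36, adjusted p = 1.01e-05). CLB2 was at 22.6 and 13.4 CPM in alpha_T0 and 135 and 159.7 CPM in alpha_t0' (-3.03 ± 0.25, adjusted p = 2.41e-05). For both genes the 2 arms were apart in either series.

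Further values followed the spiked set in sign. HTA2 was at 10.8 and 20.8 CPM in alpha_T0 and 178 and 329.7 CPM in alpha_t0' (-4.00 ± 0.32). CLN3 was at 143 and 89.4 CPM in alpha_T0 and 50.7 and 29.6 CPM in alpha_t0' (1.54 ± 0.17). MFA1 differed between the series in both arms, with 263 and 42.6 CPM in alpha_T0 and 24.9 and 9.94 CPM in alpha_t0' (2.93 ± 0.47, adjusted p = 0.00164). The lower value of each arm was that of the HeatShock series.

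Of the gene lists, 22 of 27 mating genes rose, all 10 histone genes fell (median -2.80), 21 of 30 mitotic genes, 16 of 24 G1/S genes and 21 of 28 replication genes fell, and 42 of 50 general stress genes rose with a median of 1.92. Ribosome biogenesis genes gave 43 falls of 67 (median -0.77), and ribosomal protein genes 12 falls of 137 (median -0.47). The ribosomal protein share was below the 10.5% of all genes that fell in this comparison. Against unspiked asy_T0, where 11% of all genes fell, the same alpha_T0 libraries gave 15 ribosome biogenesis falls (median -0.38). They gave 72 ribosomal protein falls there (median -0.80). In alpha_t0' over asy_T0 the medians of these lists, in the same order, were 0.32 and -0.35, with 0 genes called. Single libraries weighed on the counts against alpha_t0'. Without the HeatShock or the NaCl library of alpha_t0', 26 general stress genes rose, and without the HeatShock one 13 replication genes fell. Ribosome biogenesis falls numbered 1, 9 and 14 without alpha_t0' HeatShock, alpha_t0' NaCl and alpha_T0 HeatShock, and the ribosomal protein falls 1, 0 and 1. The wall genes gave 16 rises and 3 falls, and the phosphate genes 3 rises and 7 falls. Whether these counts differ from those of the spiked set was not tested.

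Over the 5543 genes tested in both sets, 686 rose in both, which is 70.7% of the 970 that rose in the spiked set and 85.9% of the 799 that rose in the unspiked set. Another 399 fell in both, 54.2% of the 736 spiked falls and 68.6% of the 582 unspiked falls. No gene was called in opposite directions.

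**Figure D5:**
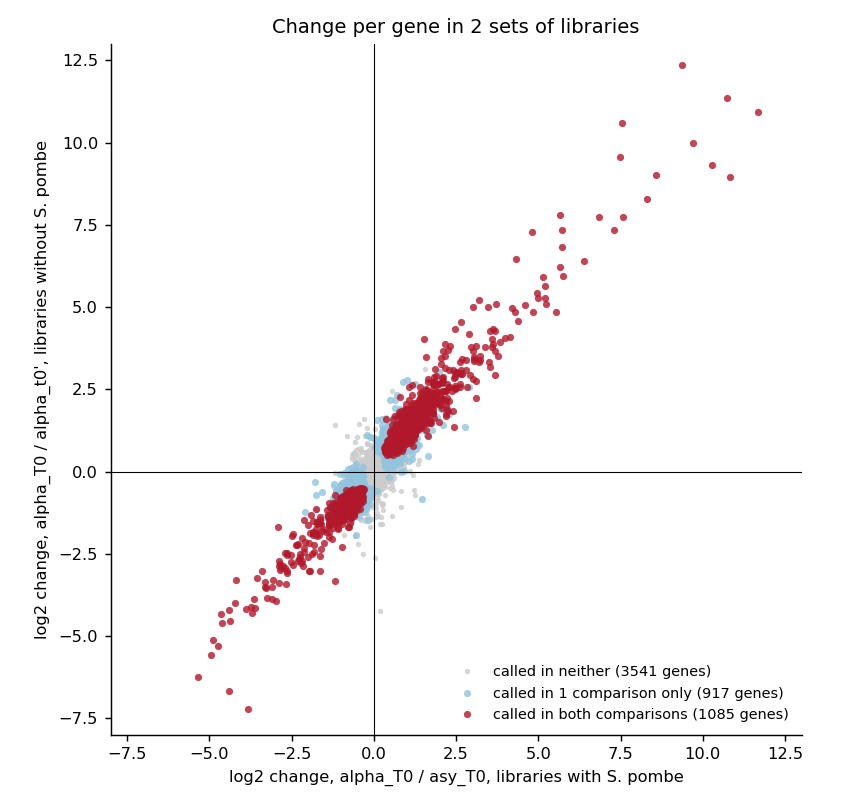
Log2 change of each of 5543 genes in alpha_T0 over asy_T0 (spiked, x axis) and in alpha_T0 over alpha_t0' (unspiked, y axis), coloured by the number of sets in which the gene was called. Of these genes 1085 were called in both sets, 917 in 1 only and 3541 in neither.

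The alpha_t0' libraries, although labelled with alpha factor, had levels of the pathway's targets near those of growing cells. The 27 mating genes took 0.358 and 0.383% of counts in alpha_t0' and 0.357 and 0.338% in unspiked asy_T0, with 2.79 and 2.69% in unspiked alpha_T0. FUS1 was at 17.7 and 21.4 CPM in alpha_t0' and 15.2 and 10.6 CPM in asy_T0 (0.59 ± 0.38, adjusted p = 0.689). CLB2 was at 135 and 159.7 CPM in alpha_t0' and 135 and 145 CPM in asy_T0 (0.08 ± 0.22, adjusted p = 0.939).

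In alpha_t0' against asy_T0, edgeR called 0 of 5552 genes (0%), with 446 at an unadjusted p under 0.05. DESeq2 called 3, all lower in alpha_t0': LYS20, an enzyme of lysine synthesis (-0.99), POR1, the mitochondrial porin (-1.08), and RPS14A (-0.82). With 2 libraries an arm, differences of this size that were missed remain possible. Against the same 2 asy_T0 libraries, the unspiked alpha_T0 libraries gave 792 higher and 612 lower genes (25.3% of those tested), and they are the same alpha_T0 libraries as in the comparison with alpha_t0'.

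The polysome inputs, made with another kit, gave values for 1 alpha_T0 and 2 asy_T0 libraries, with no test. FUS1 was at 704 CPM in the alpha_T0 input and 32.5 and 27.9 CPM in the asy_T0 inputs. CLB2 was at 20.5 CPM in the alpha_T0 input and 67.8 and 73.4 CPM in the asy_T0 inputs, and HTA2 at 5.77 CPM in the alpha_T0 input and 97.6 and 165 CPM in the asy_T0 inputs. The mating genes took 2.95% of counts in the alpha_T0 input and 0.176 and 0.273% in the asy_T0 inputs, and general stress genes 1.15% in the alpha_T0 input and 0.380 and 0.381% in the asy_T0 inputs. The alpha_T0 input thus lay on the same side of the asy_T0 inputs as in the spiked set for each of these.

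One gene outside the mating and cell cycle lists stood among the 10 largest rises. IME4, a methyltransferase of meiotic entry, was at 465, 372 and 486 CPM in alpha_T0 and 2.89, 2.47 and 1.45 CPM in asy_T0 (7.48 ± 0.24, adjusted p = 1.70e-11), and at 377 CPM in the alpha_T0 input and 0 and 0 CPM in the asy_T0 inputs. An antisense transcript overlaps IME4, and the strand setting of the counting is not given, so reads of the gene and of its antisense partner cannot be told apart. Of 15 meiosis markers tested 2 rose, IME4 and SPO11 (3.53 ± 0.32), and 1 fell, SPS4 (-2.63 ± 0.55).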

How the data were processed

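RNA-seq counts per gene were analysed as the authors deposited them: whole-number counts, not normalized, in 1 spiked, 1 unspiked and 1 polysome table. RNA was depleted of ribosomal RNA and made into ScriptSeq v2 libraries, or TruSeq libraries for the polysome inputs, per the labels' protocols. Reads were processed with Trimmomatic 0.32, Bowtie2 and HTSeq 0.6.1, per the submitters' processing notes. For the genome build, the strand setting and reads with several matches, nothing is stated in the sources used here. A further polysome table held 70 columns whose names match no labelled sample, and that table was not used. In the tables used, a row with no gene name (at most 0.00545% of counts) was left out, as were 4 to 8 blank lines per table. No sequences or coordinates are given.

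Genes were filtered with filterByExpr, scaled by TMM and tested with edgeR 4.0.16 (quasi-likelihood, R 4.3.3). The spiked fit used all 16 libraries with the replicate number as a block (5744 genes, 6 residual degrees of freedom). The unspiked fit used the 10 replicate 1 libraries before stress, nocodazole ones included, with the series as a block (5552 genes, 4 residual degrees of freedom). The replicate numbers were taken as pairs because the comparison was set up so. The library numbers of the alpha and asynchronous libraries also run in 3 blocks, 1 per replicate number. The cycloheximide libraries are labelled replicate 1 and were blocked as such, although their library numbers adjoin those of replicate 3. Deviations from the group means correlated at 0.36 to 0.68 between alpha_T0 and asy_T0 libraries of 1 number (3 pairs) and at -0.53 to 0.15 between different numbers (6 pairs). Each group of 3 was centred on its own mean, so these ranges are not independent. Paired cultures and a shared library batch cannot be told apart. No 2 libraries agreed within sampling noise (chi-square per degree of freedom at least 9.04). Pair ratios used CPM + 0.5. Counting intervals are exact at 95% and cover counting error only. The scripts were tested on simulated data.

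The comparisons, gene lists and rules were chosen with earlier results of these data known. Genes were named by rule: the 10 largest rises and falls in the spiked and the 6 largest in the unspiked comparison (called, with a symbol, mean at least 10 CPM), up to 4 called members of each list by size, and a fixed set of pathway, cell cycle and control genes. Exceptions are marked, and some genes are not reported here. Alternatives were other scalings, no filter, no block, DESeq2 1.42.0, fewer libraries and each library left out. For the unspiked set, another was a fit with the replicate 2 libraries of alpha_T0 and of nocodazole before stress added.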

Additional observations from a re-analysis of the deposited data

Results flagged for a closer look

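For 4 genes the NaCl and the HeatShock series moved in opposite directions in alpha_T0 over alpha_t0', with 1 pair of libraries in each series, so that the difference was not tested. CTS1, the chitinase that separates daughters, gave log2 ratios of 0.60 in the NaCl series and -0.064 in the HeatShock series. KSS1, the invasive growth kinase, gave 0.80 in the NaCl series and -0.028 in the HeatShock series. TDH3, the glycolytic dehydrogenase, gave 0.29 in the NaCl series and -0.29 in the HeatShock series. BNI1, the formin, gave -0.23 in the NaCl series and 0.057 in the HeatShock series. None of them was called in that comparison.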

How the results depend on the processing

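The number of genes called in spiked alpha_T0 against asy_T0 (1719) was 737 (494 higher, 243 lower) without the replicate block, 681 with S. pombe totals as library sizes, and 231 with both. It was 1551 with DESeq2, 2142 with only the 6 libraries compared, and 1168 to 1536 with 1 library left out. In alpha_T0 against alpha_t0' (1381), 712 were called without the series block, 2300 with only the 4 libraries compared and 545 to 1113 with 1 library left out, of which 545, 577 and 862 came without alpha_t0' HeatShock, alpha_t0' NaCl and alpha_T0 HeatShock. In unspiked alpha_T0 against asy_T0 (1404), 666 were called without the series block and 674 to 1257 with 1 library left out, with 674 and 756 without the HeatShock library of alpha_T0 and of asy_T0. In alpha_t0' against asy_T0 (0), DESeq2 called 3 and the fit of only the 4 libraries called 6. Where 1 library of an arm was left, it was assumed to vary like the others. A further fit added the unspiked replicate 2 libraries of alpha_T0 and of nocodazole before stress. It called 1860 genes in alpha_T0 against alpha_t0' and 1551 in unspiked alpha_T0 against asy_T0. RLE size factors and no filter on low counts kept every count within 1.5 times. The S. cerevisiae to S. pombe difference (-0.26) ranged from -0.42 to -0.060 with 1 pair left out, an alternative chosen after seeing the data. With 1 library left out the pairing is broken, and the difference of the group means ranged from -0.48 to 0.034. The paired mean was -0.26 over S. pombe genes with at least 10 counts.

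Of 99 called genes named in the spiked comparison, 84 kept their call without the replicate block, 89 with S. pombe totals and 67 under every alternative run. Of 94 in alpha_T0 against alpha_t0', 80 kept it without the series block and 72 under every alternative run. None of these changed direction.

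Signs changed for genes that were not called. With S. pombe totals, with and without the block, the spiked log2 change was -0.085 and -0.082 for STE11, -0.13 and -0.073 for STE5, -0.17 and -0.14 for STE7, and -0.038 and -0.013 for HIS3. These moves are close to that of all genes, whose median was -0.29 and -0.25 in those 2 fits and -0.01 with trimmed-mean scaling. With 1 spiked library left out it ran from -0.18 to 0.044 for STE20, -0.060 to 0.26 for STE7, -0.17 to 0.018 for TDH3, -0.22 to 0.072 for BNI1 and -0.34 to 0.024 for PEA2. In alpha_T0 against alpha_t0' with 1 library left out it ran from -0.069 to 0.46 for STE5, -0.023 to 0.33 for STE7, -0.50 to 0.93 for CTS1, -0.25 to 0.049 for BNI1 and -0.29 to 0.29 for TDH3, for which DESeq2 and RLE gave -0.0036 each and the fit of only the 4 libraries -0.021. The cause was not tested. Depth limits genes near 0 counts, and 2 libraries an arm limit the unspiked comparisons.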

Other observations

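Some reading frames without a gene symbol were among the largest rises and were picked out after their values were seen. YCL076W had 613 counts over the 3 spiked alpha_T0 libraries and 0 over the 3 asy_T0 libraries, at least 235-fold higher with a floor of 3 counts over the group. In the unspiked set it had 741 counts in alpha_T0 and 0 in alpha_t0', at least 210-fold higher. YCL074W had 1322 counts in alpha_T0 and 2 in asy_T0, a ratio of 760 (95% counting interval 210 to 6282), and 1513 in unspiked alpha_T0 and 0 in alpha_t0', at least 429-fold higher.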
